A study of Mus musculus with 12 samples.

Results

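Respiratory complex I of mouse heart is described here through 36 nuclear-encoded subunit genes, chosen by gene symbol from the 24061 symbols listed for each library. Ndufa4, among them, is now counted with complex IV and is kept under the name complex I genes below. Of the 36, 35 passed the filter on low counts and were tested, and Ndufs5 did not. RNA was captured by its poly(A) tail from hearts of male mice, all C57BL/6J, fed chow and between 2 and 4 months old. The groups were 6 heart samples heterozygous for hexokinase II (HKII+/-) and 6 wild-type heart samples (HKII+/+), and all 12 shared strain, sex, age range and diet. The labels name the genotype only, so the allele, and whether a library was made from 1 whole heart, were not given in the sources used here. The label of HKII+/- replicate 11 and that of HKII+/+ replicate 13 carry a remark of the submitters that they may be outliers, so values are given for 12 libraries and for the 10 unmarked ones, 5 per genotype.

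Complex I (NADH:ubiquinone oxidoreductase) takes electrons from NADH in the mitochondrial matrix, passes them along a chain of iron-sulphur clusters to ubiquinone, and pumps protons across the inner membrane. It is L-shaped, with a matrix arm that holds the flavin and the clusters and a membrane arm that does the pumping. Its core subunits have bacterial counterparts, and the accessory subunits wrap them and are needed for assembly or stability. Heart muscle, which renews its ATP mainly by oxidative phosphorylation, carries a dense population of mitochondria. The 7 subunits encoded by mitochondrial DNA were not analysed here.

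Counts summed to 17263209 to 51556592 per library, and the 36 genes together took 0.92 to 1.07% of the counts in HKII+/- libraries, against 0.96 to 1.18% in HKII+/+ libraries. Levels are given as CPM, counts divided by a library total that was first multiplied by its TMM factor, a scaling meant to remove differences in composition. That factor was 0.79 in HKII+/- replicate 11 and 0.76 in HKII+/+ replicate 13, and 0.99 to 1.09 in the others. Hk2, the targeted gene, measured 256 to 354 CPM in the 5 unmarked HKII+/- libraries, against 471 to 542 CPM in the 5 unmarked HKII+/+ libraries. The library labelled HKII+/- replicate 11 had 568.2 CPM of Hk2, above all 5 unmarked HKII+/+ libraries, and the marked HKII+/+ replicate 13 had 653 CPM. That level depends on the TMM factor of 0.79. As a share of the library total (13360 of 29924460 counts), Hk2 in HKII+/- replicate 11 was below every HKII+/+ library and above every other HKII+/- library. Every direction taken from 12 libraries below rests in part on a library whose Hk2 level in TMM-scaled CPM goes against its label. The 12 ventricular cardiomyocyte markers summed to 95555 to 126959 CPM in unmarked HKII+/- libraries, against 102031 to 110044 CPM in unmarked HKII+/+ libraries, and no marker was at 0. They were Myl2, Myl3, Myh6, Actc1, Tnni3, Tnnt2, Ryr2, Pln, Atp2a2, Mybpc3, Ckm and Ckmt2. Most of these genes are not confined to ventricular cells, so their sum does not tell the chambers apart. In bulk tissue, fewer cells of a type and less RNA per cell cannot be told apart.

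Between genotypes, no complex I gene passed the test in either fit. Among the 10 unmarked libraries, 0 of 35 genes reached an adjusted p below 0.05 by edgeR's quasi-likelihood test, where 0.00707% of all 14139 tested genes did (1 gene, Hk2), and 0 of 35 reached an unadjusted p below 0.05, where 2.80% of all genes did. Estimates were small, with log2 fold changes (HKII+/- over HKII+/+) from -0.045 for Ndufs4 to 0.12 for Ndufb4 and standard errors of 0.056 to 0.12. Of the 35, 15 were lower and 20 were higher, where 52.7% of all genes were lower, and their median was 0.0026, beside -0.0046 over all genes tested. That split rested on single libraries, with 3 genes lower without HKII+/- replicate 12 or without HKII+/+ replicate 18, 8 without HKII+/- replicate 16, and 10 without HKII+/- replicate 20 or without HKII+/+ replicate 17. It was 34 lower without HKII+/- replicate 19, 33 without HKII+/- replicate 22 and 25 without HKII+/+ replicate 15. Leaving aside Ndufb4, every 95% interval lay between -0.22 and 0.26, that is, between 0.861-fold and 1.20-fold of HKII+/+.

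With all 12 libraries, 0 of 35 genes were called and 0% of all 14107 genes were, and none of the 35 reached an unadjusted p below 0.05, where 0.262% of all genes did. There 30 of 35 were lower, where 50.5% of all genes were, with a median of -0.086 beside -0.0013 over all genes. Without the library labelled HKII+/- replicate 11, 18 were lower. With all 12 libraries, standard errors were 0.10 to 0.69, and the ratio of a gene's standard error with 12 libraries to that with 10 had a median of 3.23. In no gene did the 2 genotypes fail to overlap, with 12 libraries (0.0213% of all genes) or with 10 (0.474%).

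**Figure D1:**
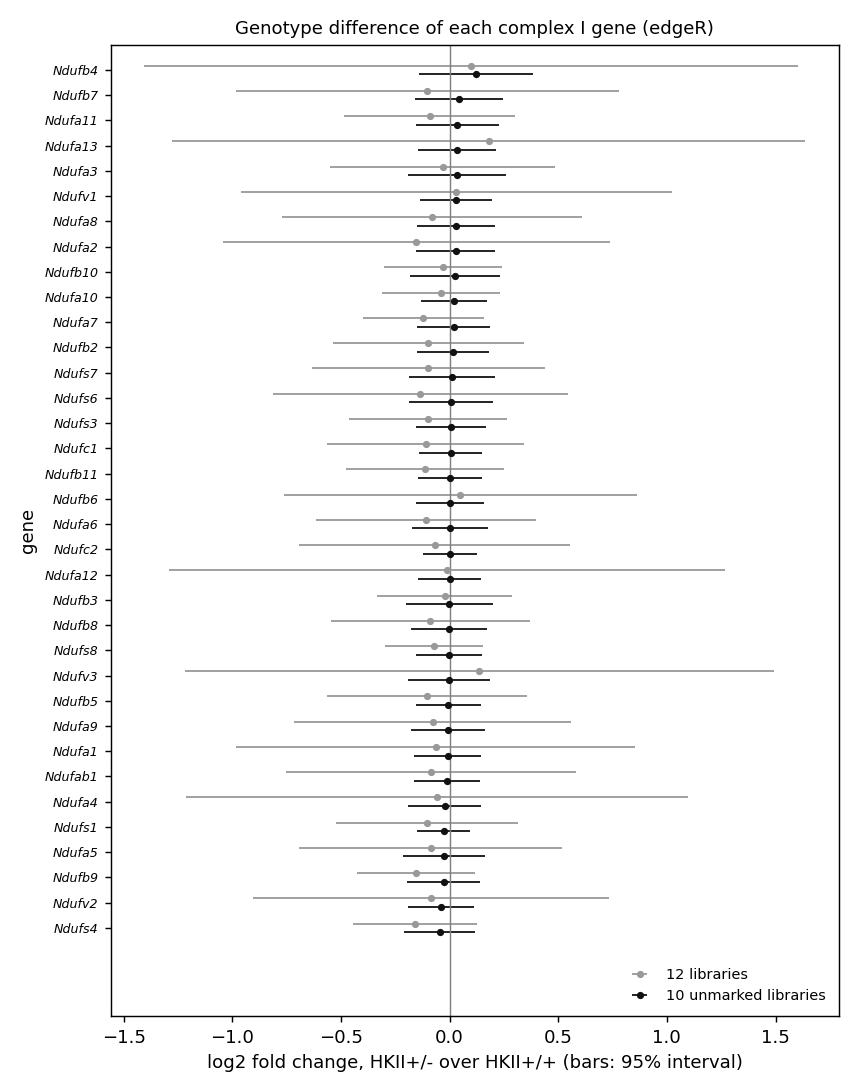
Log2 fold change of HKII+/- over HKII+/+ (x axis) for each of 35 complex I genes (rows), from 12 libraries (grey) and from the 10 unmarked libraries (black), with bars for a 95% interval derived from edgeR's F statistic. Every interval spans 0, and the grey intervals are wider, most of all for Ndufb4, Ndufa13, Ndufv3 and Ndufa12.

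The 6 nuclear core genes listed encode the flavin and iron-sulphur path of the matrix arm. In the lists of values that follow, unmarked HKII+/- libraries stand in the order of replicates 12, 16, 19, 20 and 22 and unmarked HKII+/+ libraries in the order of replicates 14, 15, 17, 18 and 21. Ndufv1, which binds the flavin that oxidises NADH, had 696, 725, 878, 774 and 895 CPM in HKII+/- libraries, against 773, 741, 808, 816 and 749 CPM in HKII+/+ libraries. The groups overlapped, with HKII+/- replicates 19 and 22 above every HKII+/+ library and replicates 12 and 16 below every one. Its log2 fold change was 0.030 ± 0.075 (SE, n = 5 each; exact two-sided permutation p = 0.77). In the marked libraries Ndufv1 stood at 2861 CPM in HKII+/- replicate 11 and 2793 CPM in HKII+/+ replicate 13, over 3 times any unmarked library.

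Ndufv2, its partner with an iron-sulphur cluster of its own, had 354, 387, 408, 387 and 413 CPM in HKII+/- libraries, against 378, 365, 384, 442 and 437 CPM in HKII+/+ libraries. HKII+/- replicate 12 was the lowest of the 10 and HKII+/+ replicates 18 and 21 were the highest. The log2 fold change was -0.041 ± 0.070 (SE; exact two-sided permutation p = 0.563, n = 5 each). Unlike Ndufv1, it was low in both marked libraries, at 71.8 CPM in HKII+/- replicate 11 and 137 CPM in HKII+/+ replicate 13. Ndufs1, the largest core subunit of the matrix arm and a carrier of several clusters, had 678, 716, 753, 694 and 789 CPM in HKII+/- libraries, against 709.6, 737, 735, 739.5 and 779 CPM in HKII+/+ libraries. It varied least of the 35 genes, with an SD of 0.069 on the log2 scale over the 10 libraries and a highest library only 1.16 times the lowest. The 2 marked libraries were its lowest, with 321 CPM in HKII+/- replicate 11 and 543 CPM in HKII+/+ replicate 13.

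Ndufs3, Ndufs7 and Ndufs8 form part of the module that hands electrons to ubiquinone. Ndufs7, which holds the last cluster of the chain, had 315, 324, 410.2, 349 and 442 CPM in HKII+/- libraries, against 356, 360.4, 381, 381 and 346 CPM in HKII+/+ libraries. Ndufs8, which carries the clusters just before it, had 173, 177, 216, 188 and 219 CPM in HKII+/- libraries, against 190.2, 193, 197, 203 and 191 CPM in HKII+/+ libraries. Ndufs3, a subunit at the base of the matrix arm without a cluster, had 223, 237, 278, 242 and 293 CPM in HKII+/- libraries, against 240.0, 249.5, 263, 258 and 257 CPM in HKII+/+ libraries. In all 3 genes HKII+/- replicate 22 was the highest of the 10, replicate 12 the lowest, and the HKII+/+ values lay between them. Their log2 fold changes were 0.012 ± 0.090 for Ndufs7, -0.0024 ± 0.070 for Ndufs8 and 0.0062 ± 0.074 for Ndufs3 (SE, n = 5 each). Ndufs7 was above its unmarked range in both marked libraries, with 622 CPM in HKII+/- replicate 11 and 808 CPM in HKII+/+ replicate 13. Ndufs3 was under its range in HKII+/- replicate 11 (128 CPM) and within it in HKII+/+ replicate 13 (233 CPM), while Ndufs8 was within its range (187 CPM) and above it (242 CPM). Over the 6 core genes the median log2 fold change was 0.0019 with 10 libraries (3 lower) and -0.091 with 12 (5 lower).

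Of the 9 accessory genes of the matrix arm, none was called, and the median log2 fold change was -0.00011 with 10 libraries (5 lower) and -0.11 with 12 (8 lower). Ndufs4, a late-joining subunit whose loss causes Leigh-like disease in mice and people, had 145, 152, 179, 155 and 180.0 CPM in HKII+/- libraries, against 154, 156, 170.4, 178 and 178 CPM in HKII+/+ libraries. The groups overlapped, and its log2 fold change, the lowest of the 35, was -0.045 ± 0.075 (SE, n = 5 each; exact two-sided permutation p = 0.532). With 12 libraries it was -0.16 ± 0.13 (SE, n = 6 each; exact two-sided permutation p = 0.258), with 165 CPM in HKII+/- replicate 11 and 252 CPM in HKII+/+ replicate 13, the highest of all 12. Ndufa7, a small subunit near the base of the arm, had 88.5, 101, 119.6, 101 and 115 CPM in HKII+/- libraries, against 101, 95.5, 110.3, 108 and 104 CPM in HKII+/+ libraries. The marked libraries were its extremes, with the lowest value, 85.2 CPM, in HKII+/- replicate 11 and the highest, 145 CPM, in HKII+/+ replicate 13. The log2 fold change of Ndufa7 was 0.018 ± 0.078 with 10 libraries and -0.12 ± 0.13 with 12 (SE; exact two-sided permutation p = 0.351 with 12).

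Ndufa2, a thioredoxin-fold subunit, was among the 2 genes whose estimates differed most between the fits. It had 105, 126, 149.8, 127 and 148 CPM in HKII+/- libraries, against 125, 126, 134, 131 and 127 CPM in HKII+/+ libraries, and 348 CPM in HKII+/- replicate 11 and 474 CPM in HKII+/+ replicate 13. The log2 fold change was 0.028 ± 0.084 with 10 libraries and -0.15 ± 0.41 with 12 (SE), on either side of 0. The remaining 6 genes were Ndufv3, Ndufs6, Ndufa5, Ndufa6, Ndufa9 and Ndufa12, and their means over the 10 libraries ran from 97.3 CPM in HKII+/- and 97.4 CPM in HKII+/+ (Ndufa12) to 465 CPM in HKII+/- and 467 CPM in HKII+/+ (Ndufa9, which binds a nicotinamide nucleotide). In the marked libraries the 2 at the ends of this group were Ndufv3, with 895 CPM in HKII+/- replicate 11 and 745 CPM in HKII+/+ replicate 13, and Ndufa12, with 6.29 and 9.77 CPM there. The same genes ranged over 126 to 172 CPM and 88.3 to 109 CPM in the unmarked libraries.

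Of the 9 accessory genes of the proximal membrane arm, next to the matrix arm, 8 were tested and none was called. Their median log2 fold change was 0.025 with 10 libraries (1 lower) and -0.066 with 12 (7 lower). Ndufa3, a single-pass membrane subunit, varied most of the 35 after Ndufb4, with an SD of 0.18 on the log2 scale. It had 83.1, 100.0, 123, 102 and 122 CPM in HKII+/- libraries, against 96.2, 98.2, 111, 116 and 96.9 CPM in HKII+/+ libraries, with HKII+/- replicate 12 low and replicates 19 and 22 high. Ndufc2, another membrane subunit, varied little, with an SD of 0.081. It had 121, 125, 134, 133 and 134 CPM in HKII+/- libraries, against 124, 118, 129, 140.5 and 135 CPM in HKII+/+ libraries. Both genes were lowest in the marked libraries, Ndufa3 at 40.4 CPM in HKII+/- replicate 11 and 65.1 CPM in HKII+/+ replicate 13, and Ndufc2 at 35.3 and 68 CPM. Ndufa13 (GRIM-19), which spans from the membrane to the matrix arm, had 233, 257, 311, 285 and 296 CPM in HKII+/- libraries, against 265, 243, 277, 302 and 262 CPM in HKII+/+ libraries. In the marked libraries it stood further above its unmarked median than any other of the 35 genes, at 1895 CPM in HKII+/- replicate 11 and 1542 CPM in HKII+/+ replicate 13, and the estimated log2 fold change was 0.034 ± 0.083 with 10 libraries and 0.18 ± 0.67 with 12 (SE). The others, Ndufa1, Ndufa8, Ndufa10, Ndufa11 and Ndufc1, averaged 131 CPM (Ndufa1) to 513 CPM (Ndufa10) in unmarked HKII+/- libraries, against 132 to 506 CPM in HKII+/+ libraries.

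Of the 11 accessory genes of the distal membrane arm, none was called, and the median log2 fold change was 0.0026 with 10 libraries (5 lower) and -0.088 with 12 (9 lower). Ndufb9, an LYR-motif subunit that docks an acyl carrier protein, had 399, 428, 482, 435 and 515 CPM in HKII+/- libraries, against 429.6, 424, 470.4, 499 and 481 CPM in HKII+/+ libraries. With 351 CPM in HKII+/- replicate 11 and 602 CPM in HKII+/+ replicate 13, the extremes of the 12, it had the smallest p of the 35. That log2 fold change was -0.15 ± 0.12 (SE, n = 6 each; edgeR unadjusted p = 0.239; exact two-sided permutation p = 0.197), and with the 10 unmarked libraries it was -0.028 ± 0.077 (SE). Ndufb4, a small membrane-anchored subunit, was the one gene of low count, with 10.1, 11.6, 11.3, 12.5 and 10.1 CPM in HKII+/- libraries, against 9.46, 8.04, 9.49, 12.6 and 11.7 CPM in HKII+/+ libraries. HKII+/+ replicate 15 was the lowest of the 10 and the groups overlapped, with a log2 fold change of 0.12 ± 0.12 (SE, n = 5 each; exact two-sided permutation p = 0.349). The other 9, Ndufb2, Ndufb3, Ndufb5, Ndufb6, Ndufb7, Ndufb8, Ndufb10, Ndufb11 and Ndufab1, averaged 65.4 CPM (Ndufab1, the acyl carrier protein) to 456 CPM (Ndufb10) in HKII+/- libraries. In HKII+/+ libraries they averaged 66.1 CPM (Ndufab1) to 454 CPM (Ndufb8). Ndufa4, first isolated with complex I and now counted with complex IV, had 479, 542, 580.2, 542 and 579 CPM in HKII+/- libraries, against 517, 493.1, 544, 624.98 and 586 CPM in HKII+/+ libraries, with log2 fold changes of -0.021 ± 0.077 with 10 libraries and -0.060 ± 0.53 with 12 (SE). It was at 36.6 CPM in HKII+/- replicate 11 and 112 CPM in HKII+/+ replicate 13, both under every unmarked library.

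Per kilobase of annotated exon, which allows levels of different genes to be set side by side, the 35 genes had a median of 224 CPM per kb in the unmarked HKII+/+ libraries. Ndufa4 was the highest at 886 ± 85 CPM per kb (SD, n = 5), followed by Ndufb9 at 655 ± 46.4. Ndufb10, on the intermembrane side of the distal arm, stood at 612 ± 25.5, and its spread overlapped that of Ndufb9. The flavin-binding Ndufv1 came next at 438 ± 19. At the low end were Ndufb4 (10.6 ± 1.9), Ndufab1 (15.1 ± 1.27) and Ndufb2 (30.4 ± 2.37). The annotated exons of Ndufab1 and Ndufb2 add up to 4.387 and 4.375 kb, the longest of the 36, and the level per kb divides by all of it.

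**Figure D2:**
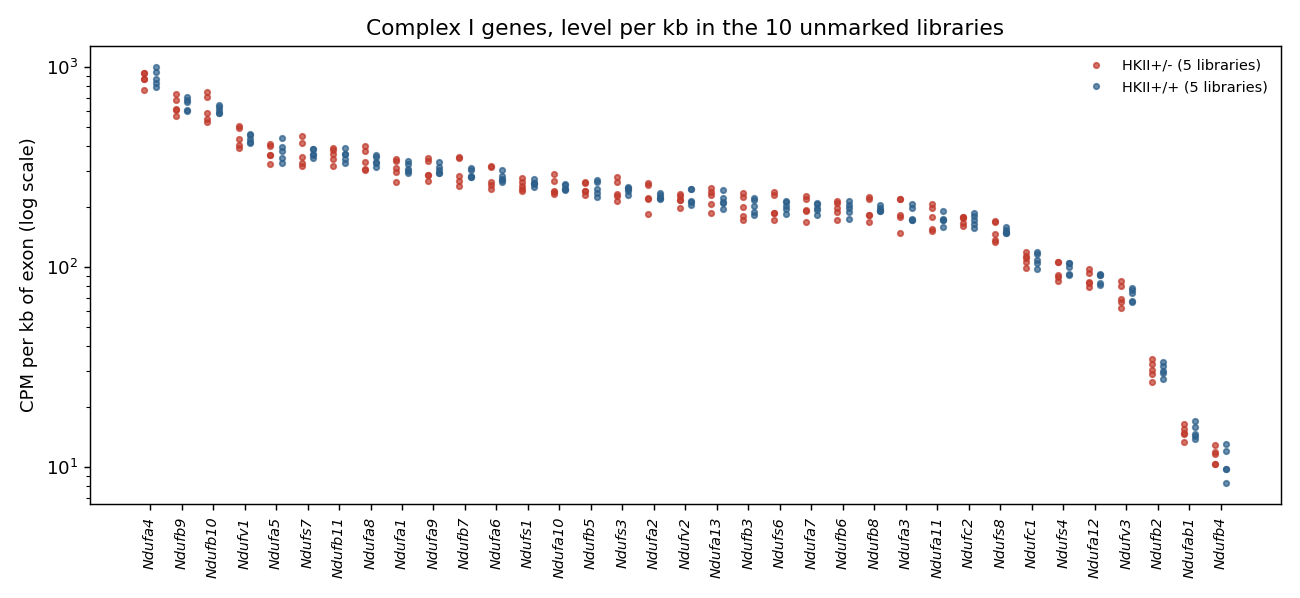
CPM per kb of exon (log y axis) for 35 complex I genes (x axis, ordered by the HKII+/+ mean), 1 point per unmarked library, HKII+/- in red at left and HKII+/+ in blue at right of each gene. Most genes sit near the median of 224 CPM per kb, Ndufa4 and Ndufb9 stand highest, and Ndufb2, Ndufab1 and Ndufb4 lie far under the rest, with the genotypes overlapping in every gene.

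The reading frames of the 2 genes with the fewest counts have an identical or near-identical copy elsewhere in the genome. They are shown here because reads that fall wholly in an identical stretch cannot be assigned to 1 place. Ndufs5, a subunit on the intermembrane side, had 0 counts in 10 libraries and 1 count in each of HKII+/- replicate 19 and HKII+/+ replicate 15. Its copy BC002163 (chr16:42955631-42955949, plus strand, GRCm38) is a processed pseudogene that matches 317 of 319 bases of the 321-base Ndufs5 reading frame, with the substitutions T81C and A105G, where the first base is that of Ndufs5 and positions are counted from 1 at the start of the frame. BC002163 had 29 to 77 counts in unmarked HKII+/- libraries, against 28 to 52 counts in unmarked HKII+/+ libraries, and 0 and 6 counts in the marked HKII+/- and HKII+/+ libraries. Bases 56 to 130 of the frame, from GENCODE vM21 transcripts, hold both substitutions, in capitals:
Ndufs5: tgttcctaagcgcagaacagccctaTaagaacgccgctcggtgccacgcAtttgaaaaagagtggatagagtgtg
BC002163: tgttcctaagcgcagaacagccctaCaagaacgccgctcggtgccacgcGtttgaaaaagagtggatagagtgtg
The 390-base reading frame of Ndufb4 is identical over all 390 bases to the processed pseudogene Ndufb4c (chr15:73809507-73809896, minus strand, GRCm38). The symbol Ndufb4c was not listed for any library, so it has no counts here. The opening 90 bases of both are shown, with no base in capitals since none differs:
Ndufb4: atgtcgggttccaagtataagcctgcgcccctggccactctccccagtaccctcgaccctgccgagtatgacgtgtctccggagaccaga
Ndufb4c: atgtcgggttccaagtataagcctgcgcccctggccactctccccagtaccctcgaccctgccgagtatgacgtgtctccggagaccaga
Ndufb4 had 233 to 516 counts in unmarked HKII+/- libraries, against 228 to 366 counts in unmarked HKII+/+ libraries, and 4 and 11 counts in the marked HKII+/- and HKII+/+ libraries. How reads with several places in the genome were counted is not given in the sources used here, so the levels of Ndufs5 and Ndufb4 are uncertain. In all, 5 genes share exact stretches of 100 bases with an annotated pseudogene (Ndufs3, Ndufa12, Ndufs5, Ndufb4 and Ndufab1), and the counts of all 5 carry that uncertainty. Of the 100-base stretches of the longest transcript, 19.8% in Ndufs5 and 33.4% in Ndufb4 were shared with another gene. The share was 19.9% in Ndufs3, 17.7% in Ndufa12 and 9.5% in Ndufab1, which averaged 254, 97.3 and 65.7 CPM over the 10 unmarked libraries. The part of the copies in the low counts of Ndufs5 and Ndufb4 was not tested. Of the 36, 12 overlap a gene on the opposite strand and 3 a gene on the same strand, and whether counting used strand is not given either.

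The 2 marked libraries differed from the other 10 in the balance among complex I genes. Deviations are log2 CPM (with a prior count of 2) minus the median of the 10 unmarked libraries. In HKII+/- replicate 11 they spread from -5.49 (Ndufb4) to 2.81 (Ndufa13), with an SD of 1.88 over the 35 genes. In HKII+/+ replicate 13 they spread from -3.76 (Ndufb4) to 2.51 (Ndufa13), with an SD of 1.47. In unmarked libraries the SD was 0.042 to 0.088, and no deviation exceeded 0.41, or 0.32 without Ndufb4. Genes of the same complex thus stood at opposite ends of 1 library, since Ndufa13, Ndufv3 and Ndufv1 were over 3 times their usual level while Ndufb4, Ndufa12 and Ndufa1 were at a fraction of theirs. Ndufa4, now counted with complex IV, was also at a fraction of its usual level. In HKII+/- replicate 11, 9 genes lay more than 1 above and 15 more than 1 below, or 68.6% of the 35, where 50.3% of all tested genes did. In HKII+/+ replicate 13, 11 lay above and 5 below, or 45.7%, where 37.5% of all tested genes did.

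The pattern was shared by both marked libraries, across the genotypes. Over the 35 genes their deviations had r = 0.989 (Spearman rho 0.985), and 32 genes lay on the same side of the median in both, against r = 0.844 and 87.0% on the same side over all 14107 tested genes. These correlations are across genes, which are not independent replicates. Of the 35 genes, 13 had the marked libraries as their top pair among the 12 and 15 had them as their bottom pair. HKII+/- replicate 11 was the lowest of 12 for 19 genes and HKII+/+ replicate 13 was the highest for 14. Deviations moved with the GC content of the longest transcript, which ran from 42.0% (Ndufv2) to 60.4% (Ndufa13). Across the 35 genes r was 0.45 (rho 0.51) in HKII+/- replicate 11 and 0.44 (rho 0.51) in HKII+/+ replicate 13, and across all 14004 tested genes with a GC value it was 0.63 and 0.65. The 15 genes under 50% GC had median deviations of -1.27 in HKII+/- replicate 11 and -0.41 in HKII+/+ replicate 13, and the 20 genes at or over 50% had 0.053 and 0.46. Some genes stood away from this order, such as Ndufa12 (51.5% GC, deviations of -3.94 and -3.31) and Ndufs4 (43.1% GC, 0.02 and 0.63). The GC relation is not confined to the marked libraries, since HKII+/+ replicate 21 had r = -0.69 across the 35 genes and HKII+/- replicate 19 had 0.51, though over deviations of at most 0.31 in size.

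**Figure D3:**
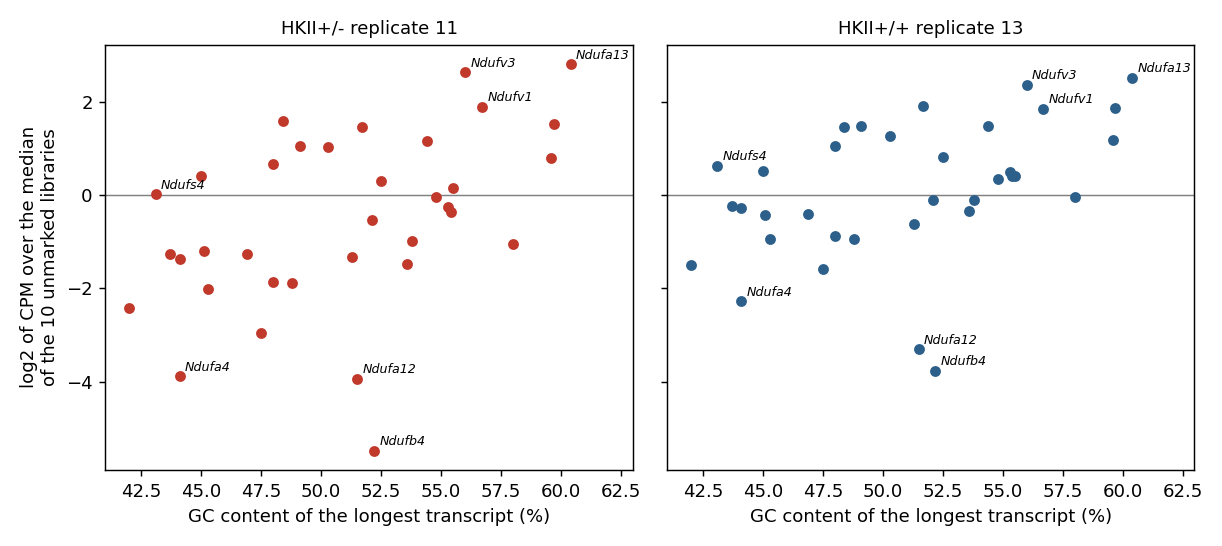
Deviation of each of 35 complex I genes (points) from the median of the 10 unmarked libraries, in log2 units (y axis), against GC content of the longest transcript in percent (x axis), in HKII+/- replicate 11 (left) and HKII+/+ replicate 13 (right). Points rise to the right in both panels with r of 0.45 and 0.44. Ndufb4 is lowest and Ndufa12 next lowest in both, at middle GC, with Ndufa4 close to Ndufa12 in the left panel.

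**Figure D4:**
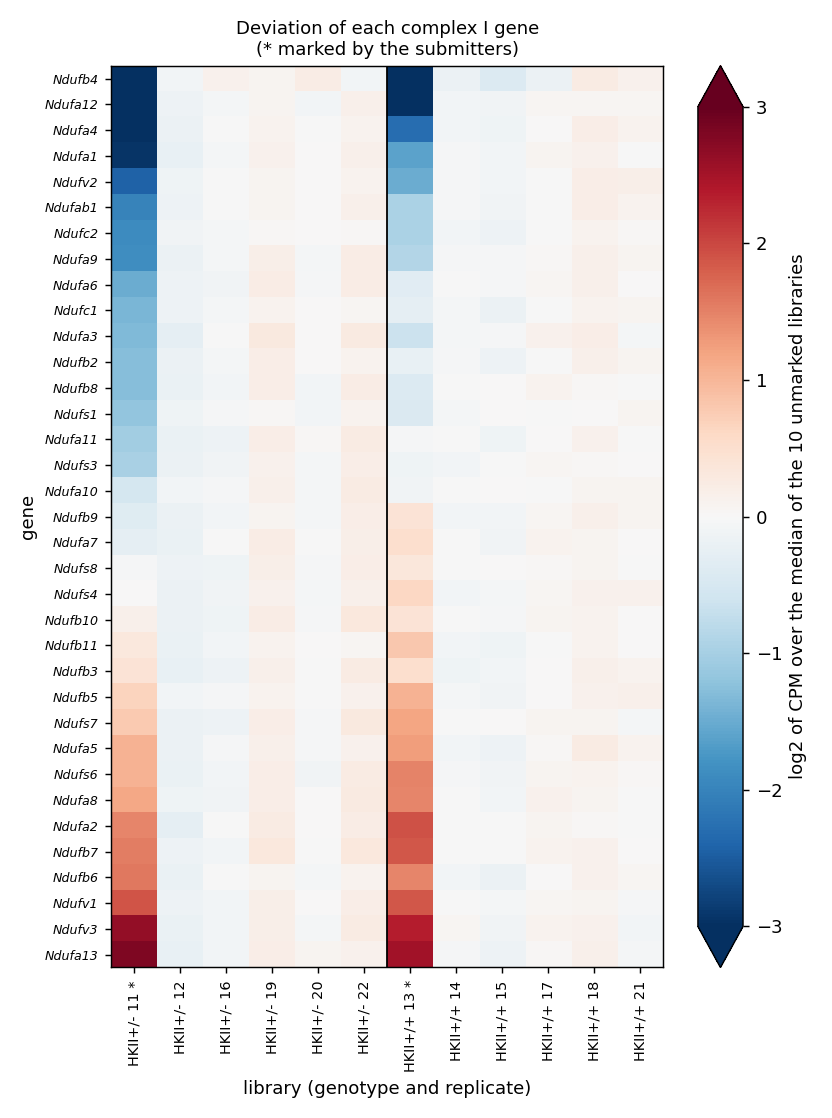
Deviation of each complex I gene (rows, ordered by HKII+/- replicate 11) in each of 12 libraries (columns, HKII+/- at left), in log2 units from the median of the 10 unmarked libraries, with colours cut at 3 in either direction. The marked columns run from blue to red over the same genes in nearly the same order, and the 10 unmarked columns stay pale.

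Marker genes of cell types differed in the marked libraries as well. The 12 ventricular cardiomyocyte markers summed to 216610 CPM in HKII+/- replicate 11 and 244102 CPM in HKII+/+ replicate 13, above every unmarked library. The 8 fibroblast markers summed to 12706 CPM in HKII+/- replicate 11, against 1036 to 1584 CPM in the unmarked HKII+/- libraries, and to 4010 CPM in HKII+/+ replicate 13, against 1204 to 1751 CPM in the unmarked HKII+/+ libraries. The 8 airway and lung markers summed to 298 CPM in HKII+/- replicate 11, against 0.43 to 1.72 CPM in the unmarked HKII+/- libraries. In HKII+/+ replicate 13 they summed to 0.984 CPM, within the 0.911 to 1.86 CPM of the unmarked HKII+/+ libraries. Thus the ventricular and fibroblast sums were raised in both marked libraries, and the airway and lung sum in HKII+/- replicate 11. There every other list but red blood cells was above its unmarked HKII+/- range too, such as atrial (17757 CPM, against 367 to 7434) and white fat markers (2102, against 434 to 510). Most of that atrial sum was Nppa (12930 CPM). Myl4 (2130 CPM), Dkk3 (705.1 CPM) and Stard10 (744.8 CPM) were also above their unmarked HKII+/- ranges. Myl7 (796.5 CPM), Sln (269.5 CPM), Bmp10 (154.5 CPM) and Fgf12 (4.376 CPM) were within theirs, so the atrial markers did not rise together. In HKII+/+ replicate 13 endothelial and Schwann cell and neuron sums were above the unmarked HKII+/+ range. Smooth muscle and brown fat sums were below it there, and the rest were within it. The part of these markers in the complex I values was not tested.

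Within the 10 unmarked libraries the complex I genes went up and down together. Over the 595 pairs of genes the median r across 10 libraries was 0.857 (quartiles 0.743 and 0.918) and 99.7% of pairs were positive, while pairs among 2597 other genes, with a mean at or above the lowest complex I gene but Ndufb4, had a median of 0.111 (quartiles -0.255 and 0.449). Each gene's r with the mean of the others lay between 0.768 and 0.969, apart from 0.310 for Ndufb4. The closest pairs were Ndufa5 with Ndufa4 and Ndufb7 with Ndufb10, both at 0.985, and the most distant was Ndufb4 with Ndufb8, at -0.080. These are descriptions over 10 libraries, and all genes of a library share its scaling. With the marked libraries added, the median over pairs was 0.317 (quartiles -0.657 and 0.935), and 11 genes had a negative r with the mean of the others, down to -0.54 for Ndufa13. A gene's SD over the 10 libraries had a median of 0.123 on the log2 scale, and 0.053 once the mean of the 35 genes in each library was taken away. That remainder ran from 0.029 for Ndufa1 to 0.197 for Ndufb4.

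Both genotypes held low and high libraries. HKII+/- replicate 12 had all 35 genes under the median of the 10 libraries, at a median of 0.883-fold, and was the lowest library for 31 of them. HKII+/- replicate 16 and HKII+/+ replicate 14 each had 34 of 35 genes under the median, at 0.953-fold and 0.976-fold. HKII+/- replicate 19 and HKII+/+ replicate 18 each had all 35 above it, at 1.11-fold and 1.09-fold, and HKII+/- replicate 22 had 34 above it, at 1.14-fold, and was the highest library for 19. By the mean over the 35 genes, HKII+/- libraries held both the lowest and the highest places, and the 5 HKII+/+ libraries lay between them.

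Cardiomyocyte markers differed among the same libraries. The 12 ventricular markers summed to 95555, 96334, 116822, 105799 and 126959 CPM in HKII+/- replicates 12, 16, 19, 20 and 22, against 102481, 102031, 108656, 110044 and 107073 CPM in HKII+/+ replicates 14, 15, 17, 18 and 21. HKII+/- replicates 22 and 19 and HKII+/+ replicate 18, the 3 highest libraries by mean complex I level, were also the 3 highest by ventricular sum, and HKII+/- replicate 12 was the lowest by both. Most genes of that list are not confined to the ventricle, so its sum is no measure of chamber to set against the atrial sum. The part of the ventricular markers in the complex I values was not tested. The 8 atrial cardiomyocyte markers summed to 6177, 5962, 367, 7434 and 457 CPM in HKII+/- replicates 12, 16, 19, 20 and 22, against 5895, 6409, 3459, 4423 and 2578 CPM in HKII+/+ replicates 14, 15, 17, 18 and 21. HKII+/- replicates 19 and 22, with the high complex I levels, had the lowest atrial sums by far, with Myl7 at 19.1 and 0.469 CPM, against 648 to 903 CPM in the other unmarked HKII+/- libraries and 230.2 to 746 CPM in unmarked HKII+/+ libraries. HKII+/+ replicate 18, high in complex I genes too, had 4423 CPM, near the middle of the 10. Bmp10 was at 0 in HKII+/+ replicate 18 and at 0.145 and 0.0195 CPM in HKII+/- replicates 19 and 22. With the mean log2 CPM of the atrial markers as a covariate among the 10 libraries, 34 of 35 genes were lower in HKII+/-, with a median log2 fold change of -0.068 beside -0.0041 over all genes, where 51.6% of all genes were lower. In that fit 1 of 35 reached an unadjusted p below 0.05 by edgeR, where 5.12% of all genes did, and 0 were called (0.00707% of all genes). Without HKII+/- replicates 19 and 22, 34 were lower with a median of -0.10 beside -0.0030 over all genes, where 51.0% of all 14378 genes were lower. In that fit 9 of 35 reached an unadjusted p below 0.05 by edgeR, where 7.02% of all genes did, and 0 were called (0.00696% of all genes). HKII+/- replicates 19 and 22 were the highest HKII+/- libraries by mean complex I level, so leaving them out lowered the HKII+/- side by itself. They also had the lowest atrial sums of the 10, so the fit with the atrial covariate is not a result separate from the fit without them. The 35 genes also moved together, so neither count of genes is a count of independent results.

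**Figure D5:**
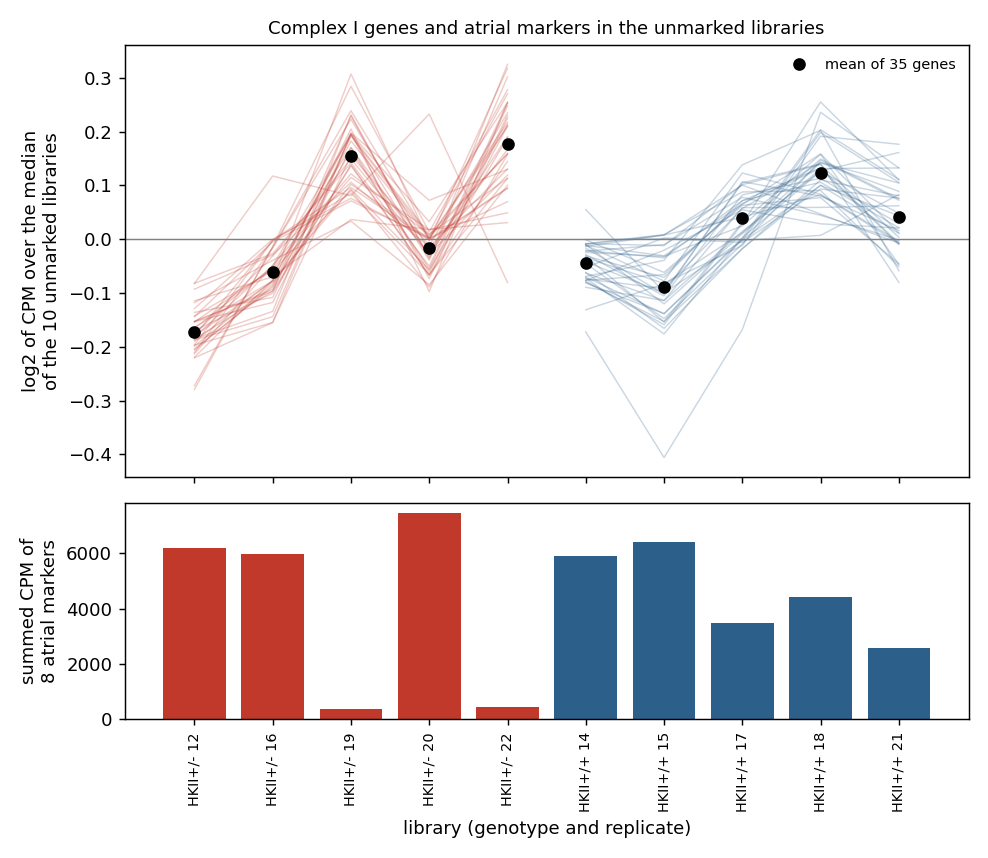
Upper panel: deviation of 35 complex I genes (thin lines, red HKII+/- and blue HKII+/+) in log2 units from the median of the 10 unmarked libraries (x axis), with black points for the mean over the genes. Lower panel: summed CPM of 8 atrial markers in the same libraries. Lines run almost parallel, low in HKII+/- replicate 12 and high in HKII+/- replicates 19 and 22, the libraries with atrial sums of 367 and 457 CPM.

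Promoter sequence was read as a description, and its part in the co-variation of the genes was not tested. RefSeq promoter windows of GRCm38.p6, from 250 bases before to 50 after the annotated start, were found for 33 of the 36 genes. Shares among them are set beside all 27025 genes with a window, whether or not those were expressed in these hearts. The YY1 motif AAGATGGCG, on either strand, was in 5 of 33 windows (15.2%), where 1.64% of 27025 genes had it. In all 5 it lay on the gene's own strand, with its first base 23 to 36 bases after the start. The motif letters include an ATG. Whether that ATG opens the reading frame, which would by itself set strand and place, was not examined. The motif is in capitals, each window written 5′ to 3′ on the gene's strand:
Ndufs7, chr10:80249467-80249487, plus strand: gaggccAAGATGGCGgcgctg
Ndufs4, chr13:114388045-114388065, minus strand: tacaggAAGATGGCGgcggtc
Ndufs6, chr13:73328435-73328455, minus strand: accggcAAGATGGCGgcggtg
Ndufa9, chr6:126849101-126849121, minus strand: tgggagAAGATGGCGgccgcc
Ndufc1, chr3:51408919-51408939, minus strand: cggaacAAGATGGCGccgtcc
The palindrome-like NRF1 motif, on either strand, was in 7 of 33 windows (21.2%), where 5.19% of 27025 genes had it. The 7 genes were Ndufs6, Ndufa5, Ndufa6, Ndufa8, Ndufa11, Ndufs5 and Ndufb4, and 3 windows are shown with the motif in capitals:
Ndufs6, chr13:73328483-73328504, minus strand: tgctgtGCGCCTGCGCcggcac
Ndufa8, chr2:36049353-36049374, minus strand: agcagtGCGCTTGCGCgtcgct
Ndufa11, chr17:56717696-56717717, plus strand: cactgcGCGCATGCGCgcacgc
The ETS family motif CCGGAAGTG was in 1 window (3.03%, against 2.25% of genes), the SP and KLF motif GGGCGGGG in 6 (18.2%, against 19.6%) and the ERR motif TCAAGGTCA in 0 (against 0.466%). Of the printed motifs, none overlapped another. Ndufs6, which holds both the YY1 and the NRF1 letters and encodes a zinc-binding subunit, had r = 0.968 with the mean of the other genes. Ndufb4, with 3 NRF1 matches and the lowest counts of the genes tested, had r = 0.310. Genes whose windows held none of these motifs had r from 0.831 (Ndufc2) to 0.964 (Ndufa1), so a high r was not particular to genes with a motif.

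The other respiratory complexes stood close to complex I in these libraries. The 35 nuclear genes of complexes III, IV and V had a median r of 0.868 among themselves and 0.868 with the complex I genes across the 10 unmarked libraries, and the 4 genes of complex II had 0.881 with them. The 14 complex I assembly factors measured, which help build the complex without staying in it, had a lower median of 0.521, and the 9 transcriptional regulators of respiratory genes had 0.248. These differences between lists were not tested. With 10 libraries the median log2 fold change was -0.0058 for the assembly factors, -0.022 for complex II, 0.0033 for complex III, 0.023 for complex IV, 0.020 for complex V and -0.024 for the regulators, beside -0.0046 over all genes, and 0 genes of these lists were called. With 12 libraries the medians were -0.058, -0.099, -0.074, -0.075, -0.074 and -0.033 in the same order, beside -0.0013 over all genes, and again 0 were called. Complex I's own medians of 0.0026 and -0.086 fall within this range.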

How the data were processed

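The authors deposited raw counts for each gene symbol in 1 table per library, and the values are whole numbers with no normalisation. Libraries came from poly(A)-captured RNA and single-end reads of 100 nt, per the labels' protocols. The submitters' processing notes name STAR 2.4.0, featureCounts 1.4.4, mm10 and GRCm38. Not given in the sources used here are the annotation release, strand use and the handling of reads with several places in the genome. All 12 tables were used, with 17263209 to 51556592 counts per library. Groups came from the titles. Nothing in the labels says that libraries came from separate animals, so p-values measure the spread between these samples, which may be technical.

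Genotypes were compared with edgeR 4.0.16 (TMM, filterByExpr with a minimum count of 10, glmQLFit and glmQLFTest, R 4.3.3), fitted on the whole table without covariates, with 12 libraries and with the 10 unmarked ones, and Benjamini-Hochberg adjustment over all genes tested at 0.05. That test returns no standard error, so each was derived as the size of the log2 fold change over the square root of the F statistic. The 95% intervals were built from it with a t quantile. Single genes were also compared on log2 CPM by exact two-sided permutation over all 924 splits (12 libraries, smallest possible p 0.00216) or 252 splits (10 libraries, smallest 0.00794), unadjusted. Code was tested on simulated data. The members and lists were chosen with earlier results of these data known. Values in every library are given for the core subunits, the 3 genes with the smallest p in each fit, the 2 highest and 2 lowest per kb, the 2 with the largest and 2 with the smallest SD, and the 2 whose estimates differ most between fits. Other genes named with values were chosen after their values were seen.

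Exon lengths, GC content and coordinates came from GENCODE vM21 on GRCm38, where 22749 symbols matched directly, 935 by a RefSeq synonym, and 377 not or not uniquely. Replicates were checked for duplicate deposits by chi-square on genes that reached 20 counts in the pair, and the smallest value per degree of freedom was 7.03. Replicate numbers do not recur between genotypes, so none pairs samples. Alternatives were RLE and upper-quartile factors, library totals, no filter, DESeq2 1.42.0, limma 3.58.1 voom with and without quality weights, an atrial marker covariate, and leaving out each library, both marked ones or HKII+/- replicates 19 and 22. A lowess correction for GC (span 0.3) was chosen after seeing the data.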

Additional observations from a re-analysis of the deposited data

Results flagged for a closer look

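In each genotype the highest or the lowest library of every complex I gene was compared with its nearest neighbour, and it was listed when that gap took a larger share of the group's range than Dixon's 95% critical value. This was done in the groups of 6 libraries and again in the groups of 5 unmarked libraries, 140 groups in all, and chance alone lists about 1 in 20. In the groups of 6, 47 were listed, and in every one the library was the one the submitters had marked. In the groups of 5 unmarked libraries, 0 were listed.

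HKII+/- replicate 11 stood apart above the other HKII+/- libraries for 10 genes, with CPM of Ndufv1 (2861), Ndufa13 (1895), Ndufv3 (895), Ndufa5 (663), Ndufa8 (645), Ndufb7 (509.8), Ndufb5 (497), Ndufb6 (389.7), Ndufa2 (348) and Ndufs6 (343). It stood apart below them for 12 genes, with CPM of Ndufb4 (0.17), Ndufa12 (6.29), Ndufab1 (16), Ndufa1 (16.7), Ndufc2 (35.3), Ndufa4 (36.6), Ndufc1 (52.8), Ndufb2 (54.7), Ndufa6 (66), Ndufv2 (71.8), Ndufa9 (125) and Ndufs1 (321).

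HKII+/+ replicate 13 stood apart above the other HKII+/+ libraries for 16 genes, with CPM of Ndufv1 (2793), Ndufa13 (1542), Ndufs7 (808), Ndufa8 (798), Ndufa5 (774), Ndufv3 (745), Ndufb5 (646), Ndufb7 (644), Ndufb10 (585), Ndufb11 (581), Ndufa2 (474), Ndufs6 (463), Ndufb6 (356), Ndufs4 (252), Ndufs8 (242) and Ndufa7 (145). It stood apart below them for 9 genes, with CPM of Ndufa12 (9.77), Ndufab1 (33.4), Ndufa1 (42.8), Ndufc2 (68), Ndufa4 (112), Ndufv2 (137), Ndufa9 (246), Ndufb8 (334) and Ndufs1 (543). No cause of these values was tested.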

How the results depend on the processing

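No paired analysis was possible because no replicate number recurs between the genotypes. The count of complex I genes called was 0 under every setting run, with 12 and with 10 libraries. For Ndufv1, Ndufa2 and Ndufa13 no DESeq2 result was kept with 12 libraries, so the count under that setting is not informative about them. Most estimates lie closer to 0 than their standard errors, and the cause of each change below was not tested.

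With 12 libraries, leaving out both marked libraries gave 1 gene called among all tested, 15 complex I genes lower and a median log2 fold change of 0.0026, and the log2 fold changes of Ndufs3 (0.0062), Ndufs7 (0.012), Ndufa7 (0.018), Ndufa3 (0.033), Ndufc2 (0.0013) and Ndufa2 (0.028) turned positive. Quality weights in voom gave 2 genes called among all tested, with 671 genes at an unadjusted p below 0.05 where edgeR had 37, with a complex I median of -0.023, and turned Ndufv1 (-0.021) and Ndufc2 (0.011), while voom without weights turned Ndufb4 (-0.25). The atrial covariate gave a complex I median of -0.15 with 30 genes lower. Removing the GC trend, a setting chosen after seeing the data, turned Ndufv1 (-0.039) and Ndufa13 (-0.0096). Leaving out 1 library at a time gave 18 to 31 genes lower, with 18 without HKII+/- replicate 11 (median -0.047) and 20 without HKII+/+ replicate 13 (median -0.051), and medians of -0.13 to -0.047. The ranges of genes that changed sign there were -0.50 to 0.57 for Ndufv1, -0.24 to 0.13 for Ndufv2, -0.16 to 0.040 for Ndufs1, -0.17 to 0.026 for Ndufs3, -0.26 to 0.19 for Ndufs7, -0.11 to 0.00045 for Ndufs8, -0.13 to 0.36 for Ndufb4, -0.26 to 0.19 for Ndufa4, -0.12 to 0.13 for Ndufa3, -0.18 to 0.12 for Ndufc2, -0.51 to 0.40 for Ndufa2 and -0.82 to 1.04 for Ndufa13.

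With the 10 unmarked libraries, upper-quartile factors turned Ndufs3 (-0.0018) and Ndufc2 (-0.0064) with 22 genes lower (median -0.0048), and library totals turned Ndufs3 (-0.0015) and Ndufc2 (-0.0027) with 21 lower (median -0.0027). DESeq2 called 3 genes among all tested. Voom gave a median of -0.0038 and turned Ndufs3 (-0.0038) and Ndufs7 (-0.0030). Voom with quality weights gave 29 genes lower (median -0.023) and turned Ndufv1 (-0.018), Ndufs3 (-0.039), Ndufs7 (-0.064), Ndufa7 (-0.014), Ndufa3 (-0.020) and Ndufa2 (-0.0094). The atrial covariate gave 34 genes lower (median -0.068) and turned Ndufv1 (-0.045), Ndufs3 (-0.075), Ndufs7 (-0.092), Ndufa7 (-0.055), Ndufa3 (-0.071), Ndufc2 (-0.027), Ndufa2 (-0.057) and Ndufa13 (-0.029). Removing the GC trend turned Ndufs7 (-0.0056). Without HKII+/- replicates 19 and 22, 34 genes were lower with a median of -0.10, and Ndufv1 (-0.086), Ndufs3 (-0.12), Ndufs7 (-0.15), Ndufa7 (-0.10), Ndufa3 (-0.12), Ndufc2 (-0.033), Ndufa2 (-0.11) and Ndufa13 (-0.063) turned negative. As replicates 19 and 22 were the highest HKII+/- libraries by mean complex I level, leaving them out lowered the HKII+/- side by itself. Both also had the lowest atrial sums, so the atrial covariate fit is not a separate result. Leaving out 1 library at a time gave 3 genes lower (without HKII+/- replicate 12 or HKII+/+ replicate 18) to 34 (without HKII+/- replicate 19), medians of -0.044 to 0.044, and 0 to 2 genes called among all tested. The ranges of genes that changed sign were -0.016 to 0.071 for Ndufv1, -0.049 to 0.048 for Ndufs3, -0.061 to 0.061 for Ndufs7, -0.048 to 0.035 for Ndufs8, -0.078 to 0.011 for Ndufb9, -0.031 to 0.072 for Ndufa7, -0.063 to 0.026 for Ndufa4, -0.024 to 0.11 for Ndufa3, -0.033 to 0.032 for Ndufc2, -0.023 to 0.10 for Ndufa2 and -0.011 to 0.087 for Ndufa13. Hk2 stayed lower in every such fit, at -0.88 to -0.75.

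Ndufs5 had 0 or 1 count in every library, with 0 in the deepest, so that no difference in it was detectable, and Ndufb4 had 4 to 516 counts. Without a filter on low counts Ndufs5 entered the fits and 14 of 36 genes were lower with 10 libraries, and 31 of 36 with 12.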
